A study of Mus musculus with 4 samples.

Results

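Endothelial transcripts were examined in the CD45+ fraction of the epididymal white adipose tissue (eWAT), the fat pad next to the epididymis. They were followed through 10 genes that mark the cells lining blood vessels, namely Cdh5, Pecam1, Esam, Kdr, Flt1, Tek, Tie1, Egfl7, Emcn and Vwf, chosen by name as known markers, with earlier results of these data known. All 10 were among the 35869 genes listed. RNA-seq was performed on cells of male WT C57BL/6 mice fed a normal diet (ND, 10% of calories from fat) or a high-fat diet (HFD, 60% of calories from fat) for 12 weeks from 8 weeks of age, with 2 samples per diet. The cells were taken from the stromal vascular fraction with CD45 microbeads, which enrich immune cells, and no other treatment or genetic change was applied. The number of mice behind each sample is not stated, so the p-values measure the spread between these samples, which may be technical. The values are TPM, the share of each gene in the transcripts of a sample, corrected for gene length, and a gene can therefore move because other transcripts rose or fell.

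Endothelial cells hold to each other through junction proteins, take up growth signals through the VEGF receptors and the angiopoietin receptors, and carry mucins, secreted proteins and stored adhesive proteins toward the blood. They lack CD45, and in fat they form a dense net of capillaries around the adipocytes. Their transcripts in a CD45+ fraction were compared between the diets, first gene by gene and then as ratios, to see whether the genes keep constant proportions to each other as those of one carried-over cell type with fixed expression would.

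The endothelial genes were well above the limit of detection in each sample. The 10 genes together held 324.6 and 329.9 TPM on ND against 359.2 and 378.4 TPM on HFD, which is between 0.0325% and 0.0378% of the total. Each of them had approximately 530 to 7590 reads per sample, as estimated from the smallest step in the values. Cdh5 had a higher TPM than Ptprc, the gene of CD45 itself, in all 4 samples. Ptprc was at 54.5 and 59.4 TPM on ND against 55.3 and 53.7 TPM on HFD, so that Cdh5 was 1.48 and 1.38 times as high in ND and 2.02 and 2.10 times as high in HFD. Among 8 leukocyte genes, several of them, such as Cd68, Adgre1 and Csf1r, mainly genes of macrophages, the summed level was between 4803 and 6032 TPM. The HFD samples differed from each other in transcripts of other cells, with 5 spermatid genes summing to 6460 TPM in replicate 1 against 1995 in replicate 2, and 8 fibroblast genes to 3057 and 6118 TPM.

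The endothelial genes were less than 1.5-fold apart between the diets. The HFD mean was between 0.693 and 1.38 times the ND mean, and the log2 fold changes of HFD against ND on the log2(TPM + 1) scale ran from -0.48 for Vwf to 0.46 for Cdh5. A differentially expressed gene (DEG) had to have an adjusted p under 0.05, from limma, as well as a difference of 1.5-fold or more. None of the 10 genes (0 of 10) met both, against 18.4% of the 16849 genes tested (8.08% higher and 10.3% lower in HFD). With the adjusted p-value alone, Cdh5 was higher in HFD and Egfl7 and Vwf were lower, 3 of 10 genes against 27.3% of all genes tested, and 5 of 10 had an unadjusted p under 0.05, against 42.3%. In 8 of 10 genes the diets did not overlap in TPM, against 66.9% of all genes. The share of DEGs was under the background and the other shares were somewhat above it, which is read as no result about these 10 genes. The largest difference of the 10 genes, 0.48 on the log2 scale for Vwf, was as large as or larger than that of 66.0% of all genes tested. The median log2 fold change was 0.12 over the 10 genes and 0.06 over all genes tested. Without either ND sample, limma gave 0 genes of all tested an adjusted p under 0.05, the 10 genes included (1 of the 10, with 3471 and 3686 of all genes, had an unadjusted p under 0.05), so these fits say nothing of the 10 genes in particular. The log2 fold change of Cdh5 was then 0.45 and 0.47. Without either HFD sample, Cdh5 and Egfl7 kept an adjusted p under 0.05 and Vwf did not, beside 25% (without replicate 1) and 34.3% (without replicate 2) of all genes. With 2 samples per diet, the smallest p of an exact permutation test is 0.333. In bulk RNA, fewer cells of a type and less RNA per cell cannot be told apart.

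**Figure D1:**
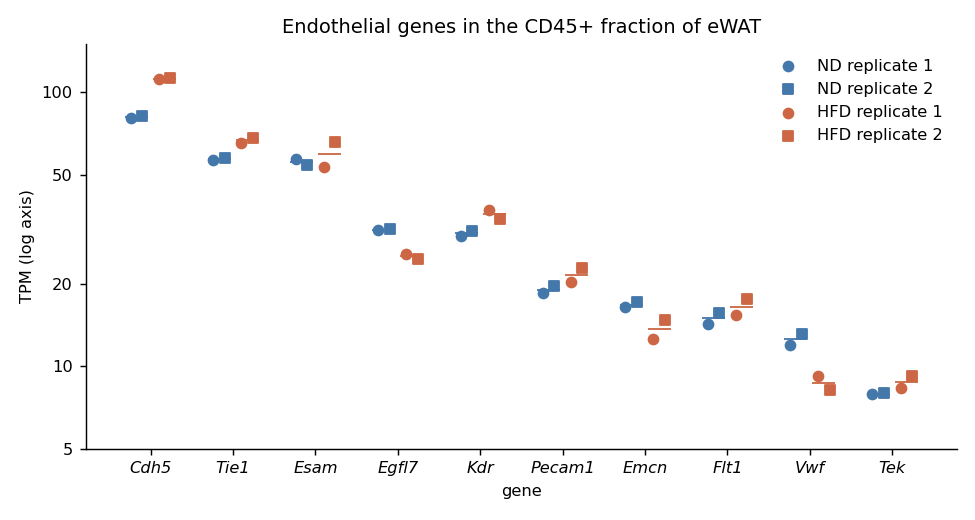
TPM of the 10 endothelial genes on a log axis, ordered by the ND mean. Circles and squares are replicates 1 and 2 of ND (blue) and HFD (orange), and short lines are group means of n = 2. The diets lie close together in each gene, with Cdh5 at 80.8 to 82.0 in ND and 111.6 to 112.7 in HFD as the widest gap upward and Vwf, at 12.0 to 13.1 and 8.2 to 9.2, as the widest downward.

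Among the junction genes, Cdh5 encodes VE-cadherin, the adhesion protein of endothelial adherens junctions and a defining marker of endothelium. Cdh5 had 80.8 and 82.0 TPM on ND against 111.6 and 112.7 TPM on HFD. Both HFD samples were higher than both ND samples, and the samples of each diet were nearly equal. The mean rose from 81.4 ± 0.849 to 112 ± 0.778 TPM (SD, n = 2 each), or by 0.46 on the log2 scale (95% interval 0.34 to 0.58, adjusted p = 0.0110 in limma). The gene lies on the plus strand of chromosome 8 from 104101625 to 104144511 in mm10, in 13 exon blocks in GENCODE M21. The antisense gene Gm29682, which overlaps it, was at 0.3 TPM or less.

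Pecam1 encodes CD31, a junction protein that platelets and many leukocytes also carry. Pecam1 had 18.5 and 19.6 TPM on ND against 20.3 and 22.9 TPM on HFD, a log2 fold change of 0.17 (95% interval -0.10 to 0.44, adjusted p = 0.253 in limma). It lies on the minus strand of chromosome 11 from 106654217 to 106750628 (all positions are those of mm10 in GENCODE M21), in 17 exon blocks. The samples did not overlap, but the HFD samples were further from each other than the nearest samples of different diets. Esam, a cell adhesion molecule of endothelial tight junctions and of platelets, had 56.9 and 54.2 TPM on ND against 53.5 and 65.7 TPM on HFD. Both ND values lay between the HFD values, and the log2 fold change was 0.09 (95% interval -0.27 to 0.46, adjusted p = 0.622 in limma). Without HFD replicate 2, it was -0.053. Esam lies on the plus strand of chromosome 9 from 37528078 to 37538319, in 10 exon blocks. Cdh5 thus had an interval above 0, while those of Pecam1 and Esam included 0.

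The receptors for VEGF were near their ND levels. Kdr, the gene of VEGFR2, which carries most of the VEGF-A signal in endothelium, had 30 and 31.2 TPM on ND against 37.3 and 34.5 TPM on HFD. Both HFD samples were higher, with a log2 fold change of 0.22 (95% interval 0.02 to 0.42, adjusted p = 0.0980 in limma). Flt1, the gene of VEGFR1, which binds VEGF-A and placental growth factor and is also found on monocytes and macrophages, had 14.3 and 15.7 TPM on ND against 15.4 and 17.6 TPM on HFD. Both receptor genes lie on the minus strand of chromosome 5, Kdr from 75932827 to 75978458 and Flt1 from 147561604 to 147726011. The diets overlapped in Flt1, and the log2 fold change was 0.13 (95% interval -0.18 to 0.44, adjusted p = 0.433 in limma).

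The receptors of the angiopoietin system had slightly higher values in HFD, and neither had an adjusted p under 0.05 in the main comparison with limma. Tie1, an orphan receptor that pairs with Tie2, had 56.5 and 57.4 TPM on ND against 65.3 and 68.1 TPM on HFD. Both HFD samples were higher, but the adjusted p was 0.0522 in limma (log2 fold change 0.22, 95% interval 0.08 to 0.37). With a filter of a mean of at least 5 TPM, the adjusted p of Tie1 was 0.0463 in limma, where 36.7% of all genes passed 0.05. Tek, the gene of Tie2, which binds the angiopoietins and is also described on a subset of monocytes and macrophages, had the lowest ND level of the 10 genes. It was at 7.9 and 8.0 TPM on ND against 8.3 and 9.2 TPM on HFD, a log2 fold change of 0.12 (95% interval -0.14 to 0.38, adjusted p = 0.383 in limma). Both lie on chromosome 4, Tek on the plus strand from 94739289 to 94874976 and Tie1 on the minus strand from 118471191 to 118490061. The intervals of Kdr and Tie1 lay above 0 and those of Flt1 and Tek did not, and each of these intervals ended below the 1.5-fold limit, 0.58 on this scale.

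The secreted and luminal proteins were the 3 genes with lower values in HFD. Egfl7 encodes a secreted protein of endothelium that associates with the vessel matrix, and its gene also holds the microRNA miR-126. Egfl7 had 31.3 and 31.6 TPM on ND against 25.7 and 24.7 TPM on HFD. Both HFD samples were lower, with a log2 fold change of -0.31 (95% interval -0.47 to -0.15, adjusted p = 0.0360 in limma). Without a variance trend or after median-ratio scaling, Egfl7 did not keep an adjusted p under 0.05. The exons of Egfl7, on the plus strand of chromosome 2 from 26580014 to 26593120, share 64 of 3581 exon bases with Agpat2 on the other strand. Agpat2 was at 32.7 and 33.4 TPM on ND against 37.2 and 28.1 TPM on HFD. The library kit keeps the strand but its use in counting is not stated, so the shared reads of Egfl7 and Agpat2 cannot be assigned with certainty, and the same holds for Gm20532, annotated over Egfl7 on its own strand in GENCODE M21.

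Emcn encodes endomucin, a sialomucin of capillary and venous endothelium. Emcn had 16.4 and 17.1 TPM on ND against 12.6 and 14.8 TPM on HFD, and both HFD samples were lower. Its log2 fold change was -0.28 (95% interval -0.59 to 0.04, adjusted p = 0.149 in limma). Emcn lies on the plus strand of chromosome 3 from 137341067 to 137432185, in 12 exon blocks. Vwf, on the plus strand of chromosome 6 from 125546774 to 125686679 in 56 exon blocks, encodes von Willebrand factor, the adhesive glycoprotein that endothelium stores in Weibel-Palade bodies and that platelets hold in their granules. Vwf had 12.0 and 13.1 TPM on ND against 9.2 and 8.2 TPM on HFD. Both HFD samples were lower, with a log2 fold change of -0.48 (95% interval -0.78 to -0.19, adjusted p = 0.0472 in limma). The adjusted p of Vwf lay just under 0.05, and Vwf passed 0.05 neither without a filter on low values nor with any 1 sample left out.

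Since platelets also hold Vwf, Pecam1 and Esam, platelet genes were read beside them. Of 12 platelet and megakaryocyte genes, 7 were tested, 1 was a DEG higher in HFD (8.08% of all genes) and 2 were DEGs lower (10.3%). Their summed level was 1821 to 1871 TPM in ND and 777.0 to 785.5 TPM in HFD, almost wholly Pf4, which tissue macrophages also express. Itga2b, the platelet integrin chain, was at 7.9 and 7.3 TPM on ND against 3.2 and 4.4 TPM on HFD (adjusted p = 0.0425 in limma). Treml1, a receptor of platelet granules, was higher, with 0.2 and 0.5 TPM on ND against 2.5 and 2.6 TPM on HFD (1.40 on the log2 scale, adjusted p = 0.0164 in limma). With both ND values under 1 TPM, Treml1 entered the test only through HFD, and its call is given no weight. Gp1bb, a chain of the platelet receptor for von Willebrand factor, had 2.2 TPM in both ND samples and 3.4 and 3.3 TPM in HFD. Its log2 fold change was 0.44 (adjusted p = 0.0473 in limma), under the 1.5-fold limit. Gp6 was listed at 0 in all 4 samples and Gp9 was at 0.3 to 0.6 TPM. With Treml1 left aside, Pf4 and Itga2b were lower and Gp1bb was higher by the adjusted p. The part of platelets in the lower Vwf was not tested.

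**Figure D2:**
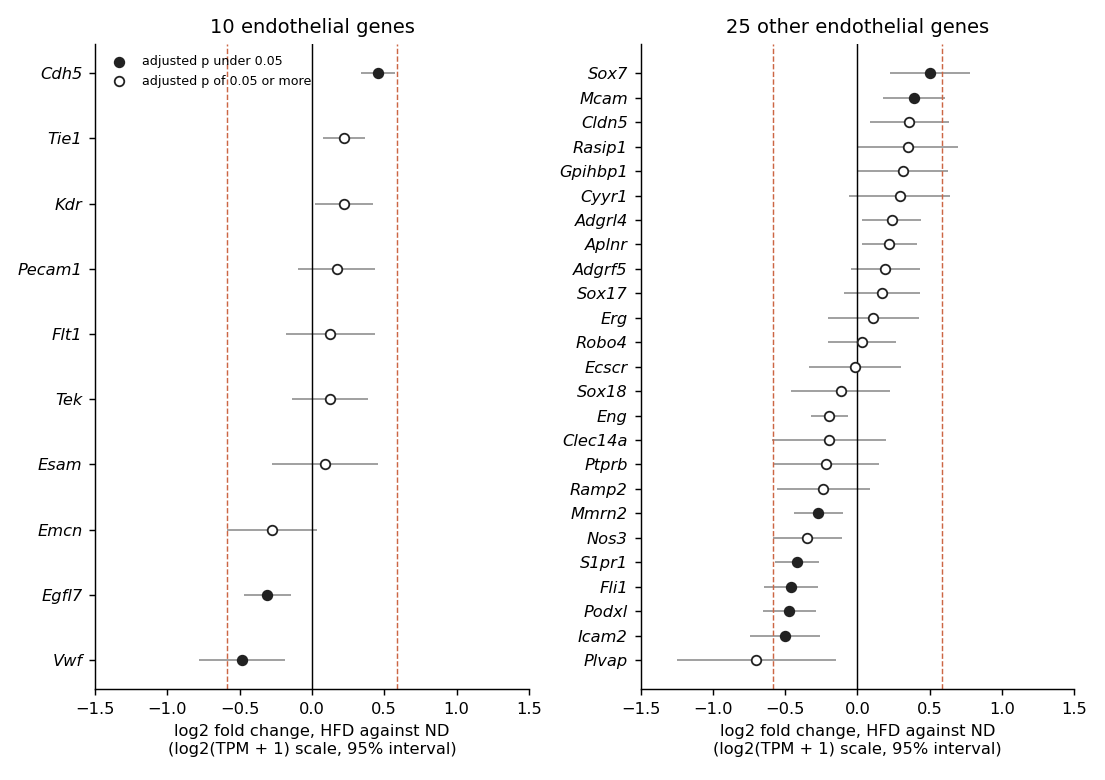
Log2 fold change of HFD against ND with its 95% interval in limma (n = 2 per diet) for the 10 endothelial genes (left) and 25 other endothelial genes (right). Filled points have an adjusted p under 0.05 and dashed lines mark 1.5-fold. All 10 points on the left lie between the dashed lines, from -0.48 for Vwf to 0.46 for Cdh5.

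The order of the levels, per length, was nearly the same in both diets. In ND it ran from Cdh5 (81.4 TPM) through Tie1 (57.0), Esam (55.6), Egfl7 (31.5), Kdr (30.6), Pecam1 (19.1), Emcn (16.8), Flt1 (15.0) and Vwf (12.6) to Tek (7.95). Tie1 and Esam overlapped in ND and were the only neighbours that did. In HFD Kdr stood before Egfl7, with 35.9 against 25.2 TPM, Flt1 before Emcn, with 16.5 against 13.7 TPM, and Tek level with Vwf, with 8.75 against 8.70 TPM. Tie1 and Esam overlapped again, as did Tek and Vwf.

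To ask whether the genes kept constant ratios, each was divided by Cdh5 in the same sample. Egfl7 was at 38.7% and 38.5% of Cdh5 in ND and 23.0% and 21.9% in HFD. Emcn was at 20.3% and 20.9% of Cdh5 in ND and 11.3% and 13.1% in HFD. Vwf was at 14.9% and 16.0% of Cdh5 in ND and 8.24% and 7.28% in HFD. In these 3 genes both HFD ratios were well under both ND ratios. Tie1 was at 69.9% and 70.0% of Cdh5 in ND and 58.5% and 60.4% in HFD. Kdr was at 37.1% and 38.0% of Cdh5 in ND and 33.4% and 30.6% in HFD, a smaller shift than in Egfl7. Esam was at 70.4% and 66.1% in ND and 47.9% and 58.3% in HFD, with the widest difference between the HFD samples.

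All 9 ratios to Cdh5 were lower in both HFD samples than in both ND samples, against 76.2% of all genes whose ratio to Cdh5 did not overlap between the diets. As Cdh5 had the largest increase among the 10 genes, the mean ratios of the other 9 lie on one side by construction. On the log2 scale with 0.1 added to each TPM, the ratio changed by -0.99 for Vwf (95% interval -1.30 to -0.67, adjusted p = 0.00862 in limma), -0.78 for Egfl7 (-0.96 to -0.60, adjusted p = 0.00531), -0.75 for Emcn (-1.06 to -0.44, adjusted p = 0.0134) and -0.23 for Tie1 (-0.37 to -0.10, adjusted p = 0.0283). These 4 of 9 ratios had an adjusted p under 0.05, against 48.1% of all genes tested in the same way (42.2% lower in HFD). Without a variance trend Tie1 was no longer among them (adjusted p = 0.0755 in limma, 3 of 9 against 46.4%). With a pseudocount of 1 Tek joined them (adjusted p = 0.0455 in limma, 5 of 9 against 52.9%). The other 5, for Kdr, Pecam1, Flt1, Tek and Esam, changed by -0.23 to -0.37, with adjusted p from 0.0621 to 0.0815 in limma. With Tie1 in place of Cdh5, Egfl7, Emcn and Vwf again had an adjusted p under 0.05 in the same direction, and Cdh5 was the other called, 4 of 9 ratios against 29.7% of all genes. Against the mean of the other 9 genes only Cdh5 did, 1 of 10 genes against a background of 24.4%, higher by 0.48 (95% interval 0.32 to 0.63, adjusted p = 0.0150), while Egfl7 was lower by 0.39 and Vwf by 0.62, with adjusted p of 0.0523 and 0.0535 in limma. Without ND replicate 1 the 9 ratios changed by -1.04 to -0.24, and without ND replicate 2 by -0.93 to -0.22. They changed by -1.08 to -0.20 without HFD replicate 1 and by -0.90 to -0.17 without HFD replicate 2. The number of ratios called depended on which sample was left out. From the lowest fold change of the 10 genes to the highest, Vwf to Cdh5, was 0.94 on the log2 scale (1.92-fold), given as a description of the extremes. The share of ratios called was near that of all genes. Against the mean of the other 9 genes Cdh5 passed, and none of Egfl7, Emcn and Vwf did (adjusted p = 0.0845 in limma for Emcn). The 95% intervals of these 3, not adjusted for the number of genes, lay under 0 (Egfl7 -0.64 to -0.14, Emcn -0.65 to -0.07, Vwf -1.02 to -0.22). Whether the 10 genes kept one proportion is not settled by these samples.

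**Figure D3:**
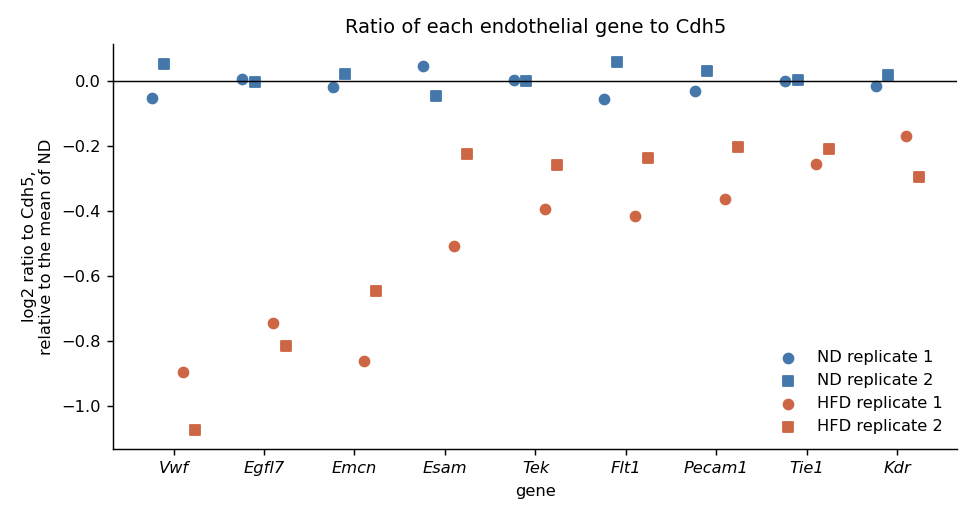
Log2 ratio of 9 endothelial genes to Cdh5 in each sample, with 0.1 added to each TPM, relative to the mean of the ND samples. Blue points are ND and orange points HFD, circles replicate 1 and squares replicate 2. All HFD points lie under the ND points, by about the same small amount for Kdr and Tie1 (mean change -0.23 each) and by the most for Vwf (-0.99).

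Samples of one diet were then compared by their TPM. The log2 ratio of ND replicate 2 to ND replicate 1 lay between -0.070 for Esam and 0.13 for Flt1, and 2 of the 10 genes, Flt1 and Vwf, were more than 2 counting errors from 0. The counting error of these ratios is approximate, covers counting error only and not the spread between animals or preparations, and lay between 0.028 and 0.085 on the log2 scale. In HFD, replicate 2 over replicate 1 lay between -0.17 for Vwf and 0.30 for Esam, and 7 of 10 genes were more than 2 counting errors from 0. The share of all genes past this limit was not worked out, so these counts are not read as a trait of the 10 genes. Cdh5 was nearly equal in the HFD samples, with a log2 ratio of 0.014 and a counting error of 0.024. Esam (0.30), at 7.36 counting errors, was farthest from an equal level, followed on the log2 scale by Emcn (0.23). The difference between the HFD samples was set beside that of other transcript groups. On the scale with 0.1 added, HFD replicate 2 against replicate 1 had a median of 0.10 for the 10 genes (-0.16 to 0.30), 1.02 for 8 fibroblast genes (0.91 to 1.12) and -1.67 for 5 spermatid genes (-2.04 to -1.59), without overlap between the 3 ranges. The 5 mesothelial genes were also higher in replicate 2 (median 0.52, 0.42 to 0.98), while the 8 resident macrophage genes were lower (median -0.53, -0.92 to -0.05), a range that overlaps that of the 10 genes. These are values of single samples and were not tested.

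**Figure D4:**
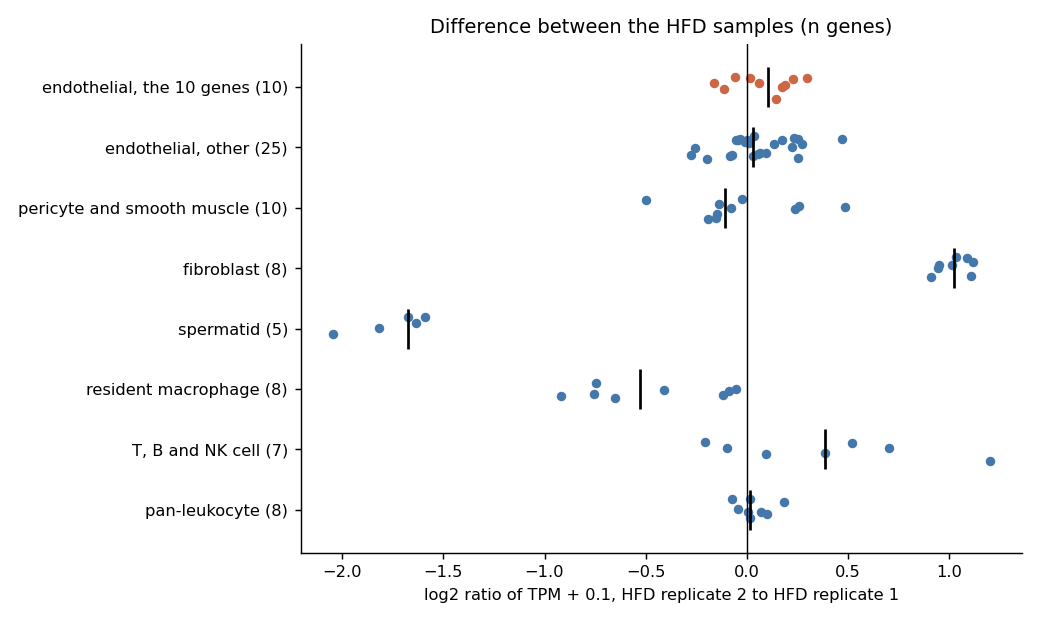
Log2 ratio of replicate 2 to replicate 1 of HFD, with 0.1 added to each TPM, for those genes of each list whose mean was 1 TPM or more. Each point is a gene and black lines are medians. The 10 endothelial genes (orange) lie from -0.16 to 0.30, while the fibroblast genes lie around 1.02 and the spermatid genes around -1.67.

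The sequence before the start of the genes was read for motifs of the ETS and GATA families, transcription factors that many endothelial genes use. Promoter sequences from RefSeq (GRCm38.p6) were used for 6 of the 10 genes, Kdr, Flt1, Tek, Tie1, Egfl7 and Emcn, in 8 windows of 250 bases before the start, and those of Pecam1, Cdh5, Esam and Vwf were not analysed here. The letters AGGAAG, searched on both strands, were in 5 of the 8 windows and in 4 of the 6 genes, Flt1, Tie1, Egfl7 and Emcn. They were in 29.5% of all 32851 windows of the same length. AGATAA, searched likewise as 1 form of the GATA motif, was in 0 of the 8 windows and in 9.99% of all windows. Other forms were not searched, and TTATCA, the reverse complement of the form TGATAA, stands in the Egfl7 window below. Absence of GATA motifs is thus not shown. Below stand the windows of Flt1, at chr5:147726012-147726261 on the minus strand, of Egfl7 at 1 of its 3 starts, chr2:26583615-26583864 on the plus strand, and of Emcn, chr3:137340828-137341077 on the plus strand. They are shown as they pair a gene that was near its ND level with 2 that had lower values in HFD, and capitals mark AGGAAG or its reverse complement.
Flt1: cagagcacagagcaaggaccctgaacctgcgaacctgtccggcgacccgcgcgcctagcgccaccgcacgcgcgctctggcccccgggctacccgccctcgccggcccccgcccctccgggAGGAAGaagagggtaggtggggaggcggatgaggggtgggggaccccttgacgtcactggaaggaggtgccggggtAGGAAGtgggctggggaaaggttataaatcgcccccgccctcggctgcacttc
Egfl7: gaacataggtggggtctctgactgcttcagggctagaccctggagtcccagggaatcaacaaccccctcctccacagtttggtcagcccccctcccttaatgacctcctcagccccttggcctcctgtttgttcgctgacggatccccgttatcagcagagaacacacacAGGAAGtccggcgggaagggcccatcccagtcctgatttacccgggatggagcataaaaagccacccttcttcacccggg
Emcn: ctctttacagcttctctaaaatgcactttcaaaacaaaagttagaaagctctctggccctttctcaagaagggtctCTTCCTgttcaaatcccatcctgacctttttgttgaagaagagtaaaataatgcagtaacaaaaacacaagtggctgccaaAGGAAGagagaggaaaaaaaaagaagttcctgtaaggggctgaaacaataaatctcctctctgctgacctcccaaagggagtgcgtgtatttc
The motif was present in 2 places in Flt1, 2 in Emcn and 1 in this window of Egfl7. A match of letters is a description and does not show a bound site.

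An intron of Egfl7 holds the microRNA gene Mir126a, whose main product miR-126 acts in VEGF signaling of endothelium, and on the other strand Mir126b. The mature sequence of miR-126a-3p lies at chr2:26591402-26591423 on the plus strand (GRCm38.p6), and is given with the seed, bases 2 to 8, in capitals, as the partner transcript of a gene that was lower in HFD.
mmu-miR-126a-3p: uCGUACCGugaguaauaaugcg
Mir126a was at 5.8 and 6.6 TPM on ND against 6.8 and 4.9 TPM on HFD, and Mir126b at 3.6 and 6.3 TPM on ND against 7.5 and 6.1 TPM on HFD. The diets overlapped in both, with log2 fold changes of -0.08 and 0.42 (adjusted p = 0.764 and 0.356 in limma). The values of Mir126a stand for approximately 5 to 8 reads, and a library of mRNA does not capture the mature microRNA. An Egfl7 transcript in GENCODE M21 retains this intron, so these reads cannot be told apart from those of the host gene.

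Other genes of endothelium, 26 in all with 25 tested, spread to both sides of 0 as the 10 did. None (0 of 25 in limma, against 18.4% of all genes) was a DEG, 14 had an unadjusted p under 0.05, against 42.3%, and the median log2 fold change was -0.02. With the adjusted p alone, 2 were higher and 5 were lower in HFD, 7 of 25 against 27.3% of all genes (13.2% higher and 14.1% lower). Sox7, a transcription factor of developing vessels (0.50 on the log2 scale, adjusted p = 0.0393 in limma), and Mcam, the adhesion molecule CD146 (0.39, adjusted p = 0.0377), were higher, as Cdh5 was. Icam2 (-0.50, adjusted p = 0.0309 in limma), a ligand of leukocyte integrins, Podxl (-0.47), a sialomucin like Emcn, Fli1 (-0.46), an ETS factor, S1pr1 (-0.42), a receptor for sphingosine 1-phosphate, and Mmrn2 (-0.27) were lower, and Icam2, Fli1 and S1pr1 are also expressed by leukocytes. The tight junction gene Cldn5, at 278.0 and 275.8 TPM on ND against 328.6 and 383.5 TPM on HFD, was not past the threshold (0.36, adjusted p = 0.0716 in limma). Plvap, the protein of the diaphragms of fenestrated vessels, had the lowest value (-0.70, adjusted p = 0.0754) and was at 81.8 and 79.1 TPM on ND against 41.7 and 57.9 TPM on HFD. It was a DEG without HFD replicate 2. Against Cdh5, 14 of the 25 had a lower ratio in HFD at an adjusted p under 0.05 and 0 a higher one, where 42.2% of all genes tested were lower.

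Genes of vessel types were taken list by list. Over all genes tested, 18.4% were DEGs (8.08% higher and 10.3% lower in HFD) and 42.3% had an unadjusted p under 0.05. The counts of these short lists are descriptions beside those shares. Of 6 venous genes, 2 were DEGs, both lower in HFD. Selp, the P-selectin that endothelium stores with Vwf, was at 54.7 and 55.5 TPM on ND against 30.1 and 30.8 TPM on HFD (-0.83 on the log2 scale, adjusted p = 0.00638 in limma), and Ackr1, a chemokine-binding receptor of venules, at 28.5 and 25.4 TPM on ND against 13.3 and 15.7 TPM on HFD (-0.85, adjusted p = 0.0237). Platelets also store P-selectin, and the platelet genes Pf4 and Itga2b were lower too, while Gp1bb was higher by the adjusted p alone. The part of platelets in the lower Selp was not tested. Sele, Vcam1, Nr2f2 and Ephb4 were between -0.26 and 0.10 and were not DEGs. Of 7 arterial genes 0 were DEGs in limma, with 5 at an unadjusted p under 0.05, from -0.48 for Efnb2 to 0.31 for Dll4, a Notch ligand. Of 5 capillary and tip cell genes 1 was a DEG, Car4, a carbonic anhydrase on capillary surfaces, at 15.8 and 16.0 TPM on ND against 30.6 and 37.9 TPM on HFD (1.05, adjusted p = 0.0184 in limma), while Esm1, the lowest of the 5, was at -0.29 (adjusted p = 0.191). Of 7 lymphatic genes 5 were tested. Pdpn (2.55), also a gene of fibroblasts and macrophages, was a DEG higher in HFD and Lyve1 (-2.73), also a gene of resident macrophages, a DEG lower in HFD, while Prox1, the factor that defines lymphatic endothelium, was at 0.1 to 0.2 TPM.

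Some ligands of the receptors, such as Vegfa, Pgf, Angpt2 and Vegfc, had wider log2 fold changes than the receptors, while Vegfb did not. The difference was not tested. Of 10 ligands and co-receptors 8 were tested and 3 were DEGs, all with higher values in HFD, against 8.08% of all genes tested. The median of the 8 genes was 0.78 on the log2 scale. Vegfa, the ligand of Kdr and Flt1, was at 7.3 and 7.4 TPM on ND against 20.8 and 26.9 TPM on HFD (1.56, adjusted p = 0.0127 in limma). Pgf, the placental growth factor that binds Flt1, was at 1.0 and 1.2 TPM in ND and 3.4 TPM in both HFD samples (1.07, adjusted p = 0.0136). Angpt2, the angiopoietin that endothelium itself makes, was at 9.0 and 9.4 TPM on ND against 25.1 and 29.8 TPM on HFD (1.48, adjusted p = 0.00909). All HFD values of the 3 genes lay above all ND values. Vegfc, which binds Flt4, was lower (-0.49, adjusted p = 0.0475), Vegfb was at 28.5 and 26.3 TPM on ND against 25.2 and 26.9 TPM on HFD (-0.07, adjusted p = 0.549), and Angpt1, the activating ligand of Tek, was at 0.5 to 0.9 TPM and was not tested. Nrp2 was higher (0.48, adjusted p = 0.0278 in limma) and Nrp1 was at 0.12 (adjusted p = 0.307). The cells that made these ligands are not known from bulk RNA.

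**Figure D5:**
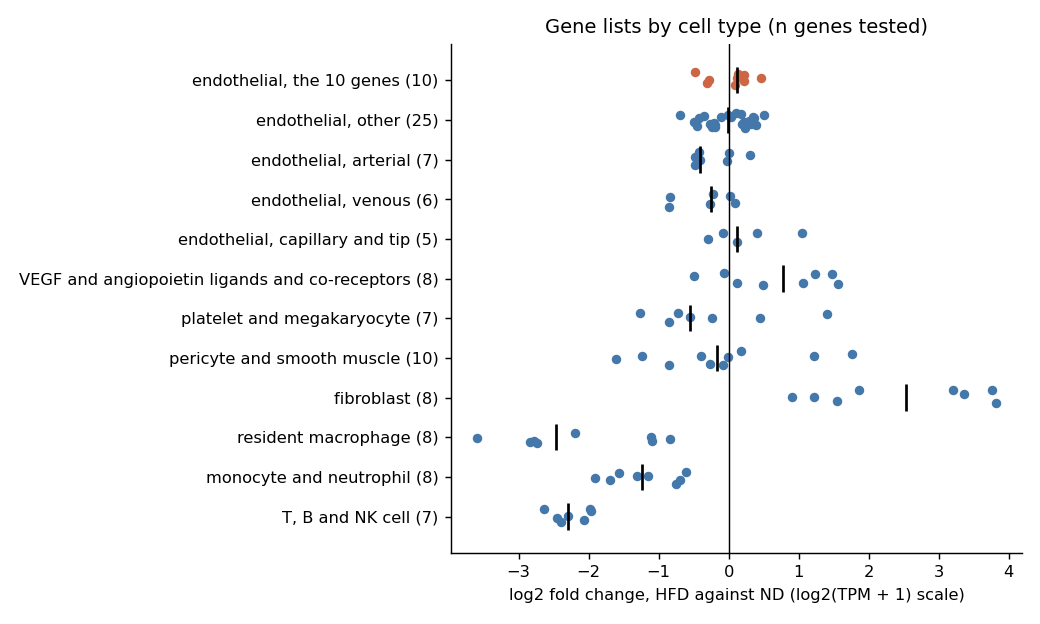
Log2 fold change of HFD against ND for each gene tested, by list, with the number of genes tested in brackets. Each point is a gene and black lines are medians. The 10 endothelial genes (orange) lie between -0.48 and 0.46 around a median of 0.12, and the T, B and NK cell genes around -2.29.

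Markers of other cells were read beside the endothelial genes. Over all genes tested, 8.08% were DEGs higher and 10.3% were DEGs lower in HFD, and 42.3% had an unadjusted p under 0.05. All 8 resident macrophage genes were DEGs with lower values in HFD (median -2.46 on the log2 scale, Mrc1 at -0.83 to Timd4 at -3.59). Of 8 monocyte and neutrophil genes 7 were DEGs, all lower (median of the list -1.24, from -1.90 for Ly6c2 to -0.61 for Csf3r), and all 7 of the T, B and NK cell genes tested were lower (median -2.29, from -2.63 for Cd3g to -1.97 for Klrb1c). Of the 8 leukocyte genes 3 were DEGs higher and 1 was a DEG lower in HFD, from Cd68 at 0.86 to Coro1a at -0.71. Cd68 and Adgre1 (0.78), both higher, are mainly genes of macrophages. Ptprc was between the extremes (-0.06, adjusted p = 0.547 in limma). Of 8 fibroblast genes 5 were DEGs, all higher (median of the list 2.53, from 0.91 for Pi16 to 3.83 for Lum), and of 5 spermatid genes 0 were DEGs in limma, with 0 at an unadjusted p under 0.05 (from 0.94 for Odf1 to 1.23 for Tnp1). Markers of several leukocyte types thus moved, and some leukocytes carry Pecam1, Flt1 or Tek. Which of them did so here is not known, and their part in the values of these 3 genes was not tested.

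The profiles most like that of Cdh5 over the 4 samples were those of genes outside the endothelial lists. By the Euclidean distance of centred log2(TPM + 0.1) values among 16561 genes whose mean was 1 TPM or more, the nearest to Cdh5 were Lamtor1, Gtf3c3, Stx8, Vti1b and Calm2, at distances of 0.0137 to 0.0242. The nearest to Pecam1 were Abcb1b, Tmem181b-ps, Rraga, Pygl and Mir22, at 0.0224 to 0.0278. Of the other 9 of the 10 genes, Tie1 was nearest to Cdh5, at rank 1802 and a distance of 0.237, followed by Kdr at rank 2001. Egfl7 was at rank 9345, Emcn at rank 9210 and Vwf at rank 11060, with a distance of 0.997. Likeness over 4 samples is a description and carries no test.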

How the data were processed

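RNA-seq was performed by the authors on CD45+ cells of eWAT from mice fed ND or HFD, with 2 samples per diet taken from the labels. Per the labels and the methods, stranded mRNA libraries were prepared, and reads were trimmed with Trim Galore 0.4.2 and cutadapt 1.9.1, aligned to mm10 with STAR 2.6.1e, stripped of duplicates and counted with featureCounts 1.6.2. The annotation and the use of strand are not given in the sources used here. The deposited values are TPM per gene, printed to 1 decimal.

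Gene symbols served to join the samples. Genes with at least 1 TPM in at least 2 samples (16849) were compared as log2(TPM + 1) with limma 3.58.1 in R 4.3.3 (variance trend, Benjamini-Hochberg adjustment over all genes tested). The added 1 shrinks the fold changes of low genes. Ratios to Cdh5 were compared in the same way on log2 values with 0.1 added, so that the error of Cdh5 enters each ratio. TPM hold no depth. The TPM of 1 read per kb, 0.0607 to 0.0711, was estimated from 215 to 253 short microRNA genes per sample, which with GENCODE M21 exon lengths gives approximately 37600000 to 46900000 reads. The gene comparison, the ratio fit and the estimate of the step were tested on simulated data. There the gene comparison missed the smaller of the changes put in, so a gene that is not called may still differ. Figures were drawn with matplotlib 3.10.9.

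The 10 genes, the marker lists and the tests were chosen with earlier results of these data known. Named were the 10 genes, the highest and lowest gene of each list and others with a mean of at least 1 TPM, the VEGF and angiopoietin ligands, the microRNA genes of Egfl7, and the 5 genes nearest in profile to Cdh5 and to Pecam1. Prox1, Gp6, Gp9 and Angpt1 were named for their low values. The alternatives were other pseudocounts, filters, scalings, references and call rules, no variance trend, a replicate block and each sample left out in turn. Other assays of the study were not analysed here.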

Additional observations from a re-analysis of the deposited data

How the results depend on the processing

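The number of the 10 endothelial genes past both thresholds was 0 in each setting but the one without a limit on the fold, which gave 3. Leaving out one sample gave 0 to 0 of the 10 genes. Of the other endothelial genes 7 passed without a limit on the fold, and 0 to 1 when one sample was left out. The number of DEGs among all genes was 3097, 2015 with a pseudocount of 5, which shrinks low genes, and 0 to 4177 with one sample left out. It was 0 without either ND sample, where 3471 and 3686 genes had an unadjusted p under 0.05 in limma. In these fits the lone sample of a diet is assumed to vary like the others. Of the ratios to Cdh5 4 passed, 0 to 8 with one sample left out, and 1 with the mean of the other 9 genes as the reference. The log2 fold change of Esam, 0.09, was -0.041 after quantile normalization and -0.053 to 0.24 with one sample left out. The cause of these changes was not tested. The other genes kept their direction in each setting. With a replicate block, 812 DEGs, 0 of the 10 genes and 3 of the 9 ratios to Cdh5 (Egfl7, Emcn and Vwf, beside 25.8% of all genes) passed. By the adjusted p alone, Cdh5 (0.0644), Egfl7 (0.140) and Vwf (0.153) were then over 0.05 in limma, where 4.82% of all genes passed. An unadjusted p under 0.05 was then found for 3 of the 10 and for 5466 of the 16849 genes. The deviations of same-numbered samples had a correlation of -0.015 across genes. With 2 samples per diet, this value cannot show whether same-numbered samples shared a preparation, which the labels do not state. Depth limits genes near 0.1 TPM, far under the 10 genes.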

Other observations

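Transcripts that mark cells next to the endothelium in the vessel wall were present as well, and these genes split. Of 11 pericyte and smooth muscle genes 10 were tested. Of these, 2 were DEGs higher and 3 were DEGs lower in HFD, against 8.08% and 10.3% of all genes tested. The contractile genes Acta2, at 57.0 and 60.3 TPM on ND against 19.6 and 17.7 TPM on HFD (-1.60 on the log2 scale, adjusted p = 0.00555 in limma), Tagln (-1.23) and Myh11 (-0.86) were lower. Cspg4, the gene of NG2, at 3.4 and 3.7 TPM on ND against 13.3 and 15.7 TPM on HFD (1.76, adjusted p = 0.00793), and Pdgfrb (1.22), which fibroblasts also express, were higher. Rgs5, at 134.8 and 146.3 TPM on ND against 125.1 and 109.7 TPM on HFD, was not past the threshold (-0.26, adjusted p = 0.133), as Notch3 (-0.08) was not.

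Of 6 adipocyte genes 5 were tested, of which Lep (1.48) was a DEG higher and Retn (-1.66) a DEG lower in HFD, where 18.4% of all genes were DEGs. Adipoq was at 12.4 and 11.3 TPM on ND against 8.6 and 4.2 TPM on HFD. Of 5 mesothelial genes, Krt19 (-0.996) was a DEG lower in HFD, and Wt1 had the highest value (1.13, adjusted p = 0.113 in limma).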
